A study of Mus musculus with 4 samples.

Results

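The BCL2 family of survival and death genes was followed in bone marrow-derived macrophages by RNA sequencing. The family was represented by 10 genes, taken by name from a table of 55401 genes. These were the pro-survival genes Mcl1, Bcl2a1b, Bcl2a1d, Bcl2l1 and Bcl2, the effectors Bax and Bak1, and the BH3-only genes Bcl2l11, Bbc3 and Pmaip1. All 10 had a single row in the table and all 10 passed the filter on low counts.

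The macrophages came from 8-week C57BL/6 mice and were grown with M-CSF. Every culture then spent 24 h beside MC38 mouse colon carcinoma cells, so no library shows macrophages without tumour cells. The 2 control libraries, numbered 1 and 3, were Mettl3fl/fl. The 2 knockout libraries, also numbered 1 and 3, were Mettl3fl/fl with LysM-cre, a Cre recombinase driven by the lysozyme M gene of myeloid cells. Mettl3 is the methyltransferase that writes N6-methyladenosine on mRNA. The comparison asks how its loss alters tumour-exposed macrophages. The study text calls the libraries biological replicates.

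BCL2 family proteins decide whether the outer mitochondrial membrane is opened during apoptosis. BAX and BAK1 form the pores that release cytochrome c. Pro-survival proteins hold them in check, and BH3-only proteins bind the pro-survival proteins, or the effectors directly, when a cell is stressed. Myeloid cells are known for their reliance on MCL1, a short-lived protein, and on BCL2A1, whose gene is induced by NF-kB.

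Total counts ran from 55100415 to 79209870 per library. Mettl3 stood at 18.3 CPM in control 1 against 13.9 in knockout 1, and at 23.2 in control 3 against 19.6 in knockout 3, so the genotypes overlapped. CPM are counts scaled for the size and composition of a library. The deleted exons are not named in the labels, so a count over the whole gene does not check them. The number of a library coincided with the sex of the cells. Xist stood at 0.589 and 0.624 CPM in the libraries numbered 1 and at 1351 and 1162 CPM in those numbered 3, while Ddx3y stood at 72.1 and 89.1 CPM against 0.307 and 0.139 CPM. Differences are therefore given pooled and within each number. Macrophage markers were abundant, with 12 of 12 detected and a summed level of 41758 to 56098 CPM. Markers of epithelial carcinoma cells summed to 1.07 to 1.97 CPM, and 6 of 12 were at 0 in every library, among them Epcam, Krt8 and Krt18. In bulk RNA, fewer cells of a type and less RNA per cell cannot be told apart.

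Ordered by FPKM, a level scaled for gene length, the family spanned a wide range and Mcl1 stood far above the rest. Mcl1 ranged from 203.0 to 298.6 FPKM over the 4 libraries, a mean above that of 99.3% of the tested genes. Bcl2a1b followed at 71.6 to 104.5 FPKM. Next came both effectors, Bax at 28.9 to 37.7 FPKM and Bak1 at 27.7 to 32.9 FPKM, which overlapped. Bcl2a1d, at most 22.4 FPKM, was below them in every library. Bcl2l11 (5.67 to 7.21 FPKM) and Bcl2l1 (3.92 to 8.35 FPKM) overlapped, as did Bbc3 (1.24 to 2.02 FPKM) and Pmaip1 (0.866 to 1.39 FPKM). Bcl2, the founding member of the family, was the lowest at 0.274 to 0.722 FPKM.

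**Figure D1:**
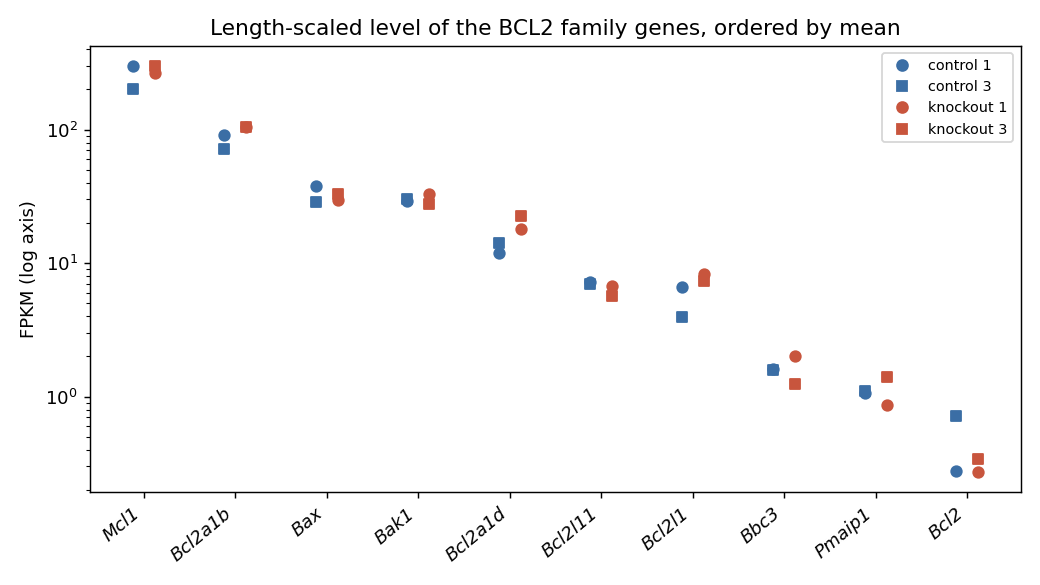
FPKM of each BCL2 family gene on a log axis, genes ordered by their mean; circles are libraries numbered 1, squares those numbered 3, blue controls and red knockouts. Mcl1 lies at or above 203.0 FPKM in every library, while Bcl2 stays at or below 0.722 FPKM.

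Among the 5 pro-survival members, most of the message was therefore Mcl1 and BCL2A1 message in both genotypes. Of the summed FPKM of the 5 pro-survival genes, Mcl1 made up 73.0% and 69.2% in controls 1 and 3 and 67.2% and 68.9% in knockouts 1 and 3. Bcl2a1b and Bcl2a1d together made up 25.3% and 29.2% in the controls and 30.6% and 29.3% in the knockouts. Bcl2l1 made up 1.33% to 2.10%, and Bcl2 at most 0.246%. The summed pro-survival level was 408.2 and 293.5 FPKM in the controls and 398.1 and 433.1 FPKM in the knockouts. That of the 3 BH3-only members was 9.88 and 9.70 FPKM in the controls and 9.67 and 8.31 FPKM in the knockouts. Control 3 had the lowest pro-survival sum, and knockout 3 the highest pro-survival and the lowest BH3-only sum. These sums leave out family genes that are not members. Of other pro-survival genes, Bcl2a1a stood at 13.1 to 25.4 FPKM and Bcl2l2 at 8.05 to 9.41 FPKM over the libraries. Of other BH3-only genes, Bad stood at 6.93 to 12.7 FPKM, Bid at 8.03 to 10.4 FPKM and Bmf at 3.74 to 4.65 FPKM.

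No member passed the test between genotypes. At an adjusted p under 0.05, edgeR's quasi-likelihood test called 0 of the 10 members and 0% of the 17260 genes tested. At an unadjusted p under 0.05 it had 1 member, Bcl2a1d, against 2.27% of all genes. DESeq2 also called 0 members, against 0.416% of the genes to which it gave an adjusted p. These fits left library number out of the model. With library number in the model, edgeR called 0 members and 0 genes. On simulated data the edgeR test without library number called none of the changed genes, so a member that was not called may still differ. Fits without 1 of the libraries leave a lone library in a group, so only their effect sizes are given.

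Both knockouts lay above both controls for Bcl2a1b, Bcl2a1d and Bcl2l1, 3 of the 10 members, where 13.1% of all tested genes did so. Both knockouts lay below both controls for Bcl2l11 alone, against 13.4% of all tested genes. Bcl2a1b and Bcl2a1d share sequence and are not separate observations. Both knockouts also lay above both controls for 3 of 12 other family genes, 4 of 16 genes of the apoptosome and caspases and 4 of 13 of the death receptor path. Those other family genes include Bcl2a1a, a further copy that shares this sequence. The same held for 3 of 20 p53 targets and 0 of 14 regulators of MCL1 turnover and BH3-only genes. In these last 2 lists, 1 and 2 genes had both knockouts below both controls. The median log2 fold change was 0.36 over the 5 pro-survival genes, -0.02 over the 2 effectors and 0.03 over the 3 BH3-only genes, and 0.00 over all tested genes. With so few members per role, these medians are a description.

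**Figure D2:**
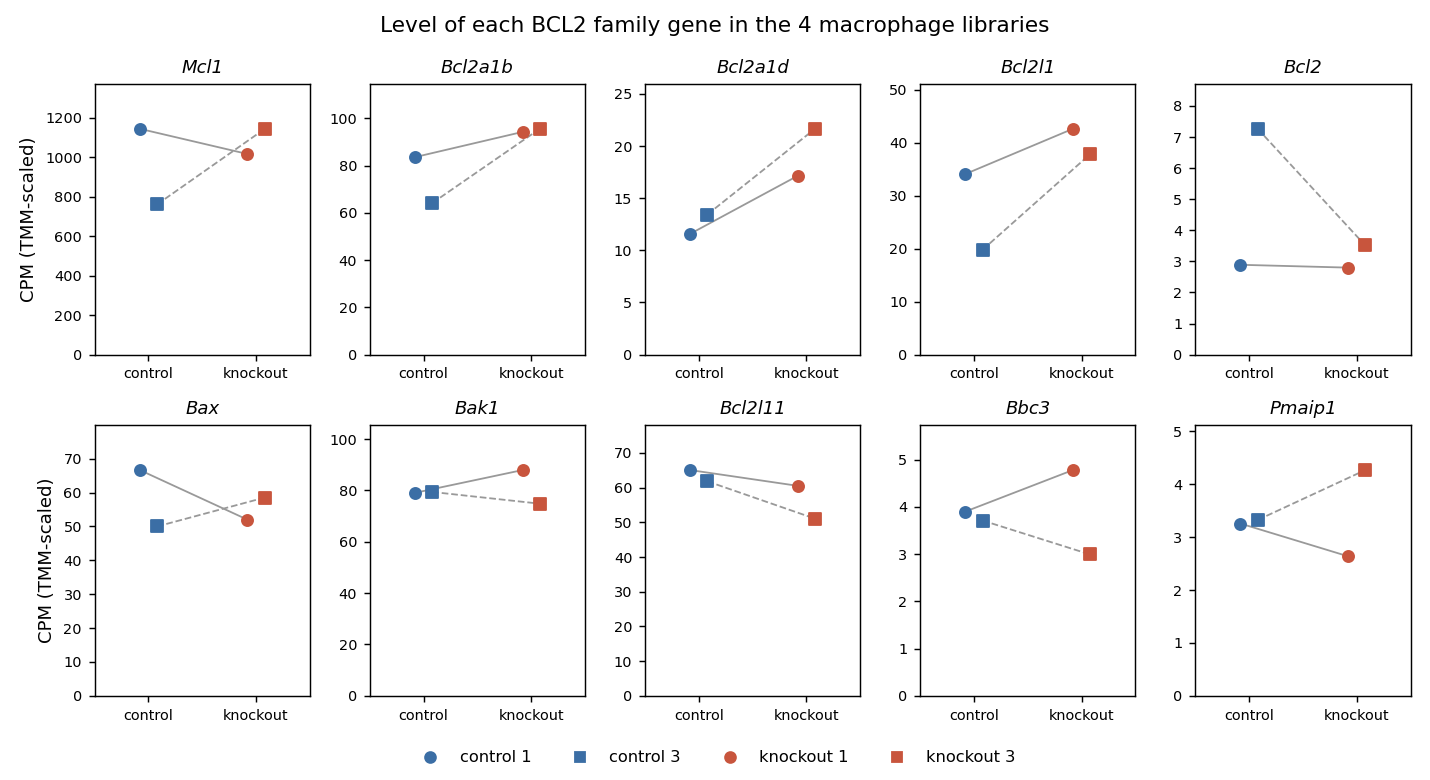
CPM of each BCL2 family gene in the 4 libraries, each panel with its own axis from 0; circles joined by solid lines are the libraries numbered 1 and squares joined by dashed lines those numbered 3. Bcl2a1b, Bcl2a1d and Bcl2l1 stand higher in the knockout within both numbers and Bcl2l11 lower, while the lines of Mcl1, Bax, Bak1, Bbc3 and Pmaip1 run in opposite directions.

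BCL2A1, also called A1, is a pro-survival protein that mice encode in several near-identical copies. Because the copies share sequence, their counts have to be read together. The first 120 coding bases of the 3 copies with counts are shown 5′ to 3′ from GENCODE M21 transcripts (GRCm38), with the 7 positions at which the copies differ in capitals.
Bcl2a1a: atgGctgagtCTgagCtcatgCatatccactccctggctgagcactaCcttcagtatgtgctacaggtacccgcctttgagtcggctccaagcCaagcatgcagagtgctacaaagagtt
Bcl2a1b: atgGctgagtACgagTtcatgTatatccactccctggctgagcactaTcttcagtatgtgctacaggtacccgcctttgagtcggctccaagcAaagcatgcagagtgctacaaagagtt
Bcl2a1d: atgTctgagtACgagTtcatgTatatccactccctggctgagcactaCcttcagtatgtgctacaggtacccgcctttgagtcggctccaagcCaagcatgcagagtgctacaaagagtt
Over the whole coding sequence of 519 bases, 12 positions vary among the 3. Bcl2a1b and Bcl2a1d differ at 6 of them and are 98.8% identical. Of all windows of 150 bases, the length of 1 read, 14.2% in the Bcl2a1b transcript and 30.3% in the Bcl2a1d transcript occur unchanged in another copy. A read from such a window cannot be placed by its own sequence, so the split of counts between copies is uncertain.

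Bcl2a1b (ENSMUSG00000089929, chromosome 9, 89199209 to 89207827, plus strand) carried most of the counts. It had 83.6 CPM in control 1 against 94.3 in knockout 1, and 64.2 in control 3 against 95.6 in knockout 3. The knockouts were close to each other and above both controls. The edgeR estimate in log2 was 0.36 ± 0.19 (SE, 2 libraries a genotype, edgeR unadjusted p = 0.116, adjusted p = 1.00), or 1.29-fold, with a 95% interval of -0.13 to 0.86. It was 0.17 within number 1 and 0.58 within number 3. Without control 3 it was 0.19, and without control 1 it was 0.57. The gene Gm29094 overlaps it on the same strand and stood at 1.01 to 2.91 CPM.

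Bcl2a1d (ENSMUSG00000099974, chromosome 9, 88723285 to 88731914, minus strand) had the smallest unadjusted p of the 10 members. It gave 11.6 CPM for control 1 and 13.4 for control 3, then 17.1 for knockout 1 and 21.7 for knockout 3, with no overlap. Knockout over control, the fitted log2 ratio came to 0.63 ± 0.23 (SE over 2 libraries a genotype, edgeR unadjusted p = 0.0467, adjusted p = 1.00), or 1.55-fold, with a 95% interval of 0.01 to 1.25. The values within the numbers were alike, 0.57 within number 1 and 0.69 within number 3.

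The remaining copies were read beside these members. Bcl2a1a, not among the 10 members, stood at 15.4 and 11.7 CPM in the controls, with 20.5 and 23.3 in the knockouts. Knockout minus control by edgeR was 0.69 ± 0.24 in log2 (SE with 2 libraries a genotype, edgeR unadjusted p = 0.0365, adjusted p = 1.00). Bcl2a1c had a count of 0 in both controls and of 3 and 4 in the knockouts, too few to test. Summed over the 4 copies, the level was 132.0 and 140.6 CPM in the knockouts against control values of 110.6 and 89.3. In this sum both knockouts again lay above both controls. The estimated log2 ratio was 0.45 ± 0.17 (SE from 2 libraries a genotype, edgeR unadjusted p = 0.0544, adjusted p = 1.00), or 0.25 and 0.65 within numbers 1 and 3. Bcl2a1b held 75.6% and 71.8% of the summed count in the controls and 71.5% and 68.0% in the knockouts.

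The copies resemble each other before their starts as well, which is why these stretches are shown. The 186 bases before the start that the deposited table gives for Bcl2a1b (chr9:89199023-89199208, plus strand) and Bcl2a1d (chr9:88731915-88732100, minus strand) are given 5′ to 3′ from RefSeq (GRCm38.p6), with motif matches in capitals.
Bcl2a1b: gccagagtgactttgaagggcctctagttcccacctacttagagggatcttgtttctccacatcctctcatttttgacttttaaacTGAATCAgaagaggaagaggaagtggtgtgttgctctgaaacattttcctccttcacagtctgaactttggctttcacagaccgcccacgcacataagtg
Bcl2a1d: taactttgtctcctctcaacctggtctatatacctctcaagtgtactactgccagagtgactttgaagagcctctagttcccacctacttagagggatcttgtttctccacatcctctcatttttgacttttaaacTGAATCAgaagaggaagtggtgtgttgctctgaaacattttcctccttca
RefSeq windows of 250 bases before the RefSeq start were matched for 9 of the 10 members. For Bcl2a1b and Bcl2a1d the last 64 bases of that window lie inside the gene as the table gives it and are not shown. All windows were searched on both strands for 5 motifs, AP-1 (TGANTCA), a kappaB site (GGG, any 2 bases, then TTTCC), the TATA box (TATAAA), a GAS element (TTCNNNGAA) and the E-box (CACGTG). The only match in the windows of Bcl2a1b, Bcl2a1d and Bcl2a1a was to the AP-1 pattern, which allows any middle base. It read TGAATCA in each, and the pattern was present in 6.75% of all such windows. The match begins 100 bases before the start in the table for Bcl2a1b and 50 bases before it for Bcl2a1d. The longest stretch shared without a difference by both windows was 84 bases. A kappaB match was found in the 1 window of Mcl1, 28 bases before its RefSeq start. It was also found in 1 of 3 windows of Bcl2l1 and 1 of 3 of Bbc3, against 1.41% of all windows. The E-box was found in the 1 window of Bax, 9 bases before its RefSeq start, and in 1 of 3 windows of Bbc3, against 6.02% of all windows. Such matches are descriptions of sequence, not of binding.

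Bcl2l1 (ENSMUSG00000007659, chromosome 2, 152780668 to 152831728, minus strand) encodes BCL-XL, a pro-survival protein of many long-lived cells. Its level was 34.1 and 19.8 CPM in controls 1 and 3 and 42.6 and 37.8 CPM in knockouts 1 and 3. Both knockouts lay above both controls, and control 3 was the lowest by far. The edgeR estimate in log2 was 0.58 ± 0.31 (SE, 2 libraries a genotype, edgeR unadjusted p = 0.125, adjusted p = 1.00), or 1.49-fold, with a 95% interval of -0.24 to 1.40. It was 0.32 within number 1 and 0.93 within number 3. Without control 3 the pooled value was 0.24, and without control 1 it was 1.03.

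Mcl1 (ENSMUSG00000038612, chromosome 3, 95658788 to 95663176, plus strand), the most abundant member, did not separate the genotypes. Control 1 and knockout 3 stood at the same level, 1144 and 1143 CPM, and knockout 1 was close at 1016 CPM. Control 3 stood apart at 760.7 CPM. Knockout over control, the fitted log2 ratio came to 0.18 ± 0.26 (SE over 2 libraries a genotype, edgeR unadjusted p = 0.525, adjusted p = 1.00), with a 95% interval of -0.52 to 0.88. It was -0.17 within number 1 and 0.59 within number 3, and turned to -0.08 without control 3.

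Bcl2 itself (ENSMUSG00000057329, chromosome 1, 106538178 to 106714274, minus strand) was scarce, at counts of 157 to 450. It had 2.89 CPM in control 1 against 2.80 in knockout 1, and 7.27 in control 3 against 3.51 in knockout 3. A single library, control 3, was high, and the other 3 lay close together. Knockout minus control by edgeR was -0.69 ± 0.54 in log2 (SE with 2 libraries a genotype, edgeR unadjusted p = 0.264, adjusted p = 1.00), with a 95% interval of -2.11 to 0.74. It was -0.05 within number 1 and -1.04 within number 3, and turned to 0.13 without control 3. Lymphocytes are known for high Bcl2. The T cell markers Cd3e and Cd8a were at 0 in all libraries, but others were not. Trac had a count of 10 in control 3 alone. Cd3g had counts of 4 in control 3 and 12 in knockout 3, and Cd3d had 8 in knockout 3. The list of lymphocyte markers that holds them summed to 22.7 (control 1), 27.1 (control 3), 35.1 (knockout 1) and 26.3 CPM (knockout 3). Most of it was Cd4, which macrophages can express. On the same list, Cd79b stood at 5.15 (control 1), 2.78 (control 3), 9.89 (knockout 1) and 2.46 CPM (knockout 3). Klrb1c had a count of 0 in both controls, 31 in knockout 1 and 16 in knockout 3. The part of these markers in the Bcl2 values was not tested.

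Control 3 thus held the lowest level of Mcl1, Bcl2a1b, Bcl2l1 and Bax and the highest of Bcl2 among the 4 libraries. Some marker lists also differed in that library. Its fibroblast markers summed to 893.1 CPM, against 444.1 in control 1, 350.2 in knockout 1 and 571.8 CPM in knockout 3. This difference was not confined to control 3. The knockout was lower within both numbers for 10 of 10 of these markers, as for 27.2% of all tested genes. Both libraries numbered 3 lay above both numbered 1 for 8 of 10, against 26.2% of all tested genes. The macrophage markers of control 3 summed to 56098 CPM, against 41758 to 44953 CPM in the other 3 libraries. Most of that sum was Lyz2, at 40813 CPM in control 3 against 22069 to 25785 CPM in the other 3 libraries. The other macrophage markers did not share 1 direction. In control 3 Csf1r was at its lowest, 4441 CPM, and Cd68 at its highest, 814.2 CPM. Whether these marker differences moved the BCL2 family values was not tested. Neutrophils are also rich in Mcl1 and BCL2A1. Neutrophil markers summed to 1013 and 439.9 CPM in the controls, with 741.8 and 509.5 in the knockouts, while Ly6g, Retnlg and Cxcr2 were at 0 in all 4 libraries. Csf3r and Mmp8, which carried most of the sum, stood at 297.0 to 681.1 CPM and 80.9 to 317.4 CPM. Of 6 tested neutrophil markers, 2 (S100a8 and Camp) had both knockouts above both controls and 0 had both below. S100a8 stood at 14.1 and 15.9 CPM in the controls, with 18.9 and 24.2 in the knockouts. The part of these markers in the Mcl1 and BCL2A1 values was not tested.

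Neither effector separated the genotypes. Bax (ENSMUSG00000003873, chromosome 7, 45461697 to 45466898, minus strand), which moves from the cytosol to mitochondria on activation, gave 66.7 CPM for control 1 and 50.0 for control 3, then 52.0 for knockout 1 and 58.5 for knockout 3. The knockouts lay between the controls. The estimated log2 ratio was -0.08 ± 0.20 (SE from 2 libraries a genotype, edgeR unadjusted p = 0.722, adjusted p = 1.00), with a 95% interval of -0.62 to 0.46. Number 1 gave -0.36 and number 3 gave 0.23. Leaving out control 1 turned the pooled value to 0.15, and leaving out knockout 1 to 0.02.

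Bak1 (ENSMUSG00000057789, chromosome 17, 27019810 to 27029009, minus strand), which resides in the mitochondrial membrane, had the narrowest interval of the 10 members. It had 79.1 CPM in control 1 against 87.9 in knockout 1, and 79.4 in control 3 against 74.8 in knockout 3. The controls lay between the knockouts. The edgeR estimate in log2 was 0.04 ± 0.16 (SE, 2 libraries a genotype, edgeR unadjusted p = 0.817, adjusted p = 1.00), with a 95% interval of -0.38 to 0.46, with 0.15 for number 1 and -0.09 for number 3. Leaving out knockout 1 turned it to -0.07. Gm50253 overlaps Bak1 on the opposite strand, at 0.272 to 8.87 CPM. The ratio of Bax to Bak1 in FPKM was 1.29 and 0.962 in the controls and 0.903 and 1.19 in the knockouts, with the genotypes overlapping.

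Among the 3 BH3-only members, Bcl2l11 (ENSMUSG00000027381, chromosome 2, 128126038 to 128162547, plus strand) was the most abundant. It encodes BIM, which binds all pro-survival proteins of the family and ends the life of many blood cells. Its level was 65.1 and 61.8 CPM in controls 1 and 3 and 60.5 and 51.1 CPM in knockouts 1 and 3. Both knockouts lay below both controls, but knockout 1 only slightly so. Knockout over control, the fitted log2 ratio came to -0.19 ± 0.16 (SE over 2 libraries a genotype, edgeR unadjusted p = 0.315, adjusted p = 1.00), with a 95% interval of -0.62 to 0.25, -0.10 within number 1 and -0.28 within number 3. The pooled value was -0.07 without knockout 3 and -0.30 without knockout 1. The ratio of Mcl1 to Bcl2l11 in FPKM was 41.3 and 28.9 in the controls and 39.5 and 52.7 in the knockouts, so that the genotypes overlapped.

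Bbc3 and Pmaip1, which encode PUMA and NOXA, are induced by p53, and both were low. Bbc3 (ENSMUSG00000002083, chromosome 7, 16308393 to 16318205, plus strand) gave 3.90 CPM for control 1 and 3.71 for control 3, then 4.78 for knockout 1 and 2.99 for knockout 3. Knockout minus control by edgeR was 0.03 ± 0.38 in log2 (SE with 2 libraries a genotype, edgeR unadjusted p = 0.941, adjusted p = 1.00), with a 95% interval of -0.97 to 1.03. Within the numbers it was 0.29 and -0.31. In Bbc3 the controls lay between the knockouts, and its pooled value turned to -0.33 without knockout 1 and to -0.003 without control 3.

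Pmaip1 (ENSMUSG00000024521), whose protein binds MCL1, had 3.26 CPM in control 1 against 2.64 in knockout 1, and 3.33 in control 3 against 4.27 in knockout 3. Its controls likewise lay between the knockouts, and in the opposite order to Bbc3. The estimated log2 ratio was 0.07 ± 0.39 (SE from 2 libraries a genotype, edgeR unadjusted p = 0.865, adjusted p = 1.00), with a 95% interval of -0.96 to 1.10. Within the numbers it was -0.30 and 0.36, and it turned to -0.32 without knockout 3. For these genes, at counts of 165 to 338, the intervals leave room for a 2-fold difference either way or nearly so.

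**Figure D3:**
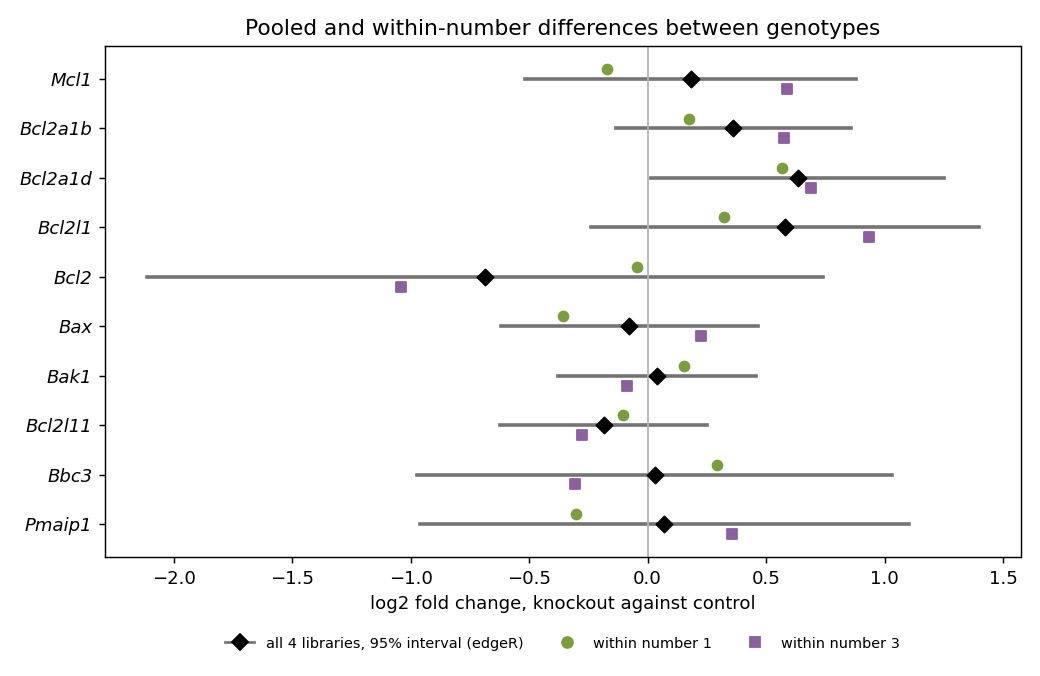
Log2 fold change of each BCL2 family gene, knockout against control; diamonds with lines are the edgeR estimate from all 4 libraries with its 95% interval, circles the difference within number 1 and squares that within number 3. Intervals of 9 of the 10 genes span 0, and that of Bcl2a1d begins at 0.01.

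Direction was shared by both numbers for 5 members and opposite for the other 5. Among all tested genes, 47.0% had opposite signs within the numbers, near the share in the family. In Bcl2a1b, Bcl2a1d, Bcl2l1 and Bcl2l11 both within-number values had the sign of the separation, and Bcl2 was lower in the knockout within both numbers. In 4 of these 5, all but Bcl2a1d, the difference was more than 2 times as large within number 3 as within number 1. The difference between the within-number values was not tested, since there is 1 library of each genotype per number.

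Library number was compared as well. With genotype in the model, edgeR called 0 of the 10 members between numbers at an adjusted p under 0.05, where it called 0.707% of all tested genes. At an unadjusted p under 0.05 there were 0 members, against 17.6% of all tested genes. Bcl2 had a log2 difference of 0.83 ± 0.36 in number 3 against number 1 (SE; edgeR adjusted p = 0.343) and Bcl2l1 one of -0.48 ± 0.20 (SE; edgeR adjusted p = 0.326). Both libraries numbered 3 lay above both numbered 1 for Bcl2 and Pmaip1, as for 26.2% of all tested genes. They lay below for Bbc3, as for 25.2% of all tested genes. Both libraries numbered 3 lay below both numbered 1 in 14 of 16 cell cycle genes, of which edgeR called 0. Summed, these genes stood at 313.7 and 312.4 CPM in number 3 against 562.7 and 741.2 CPM in number 1, and their part in the BCL2 family values was not tested.

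Profiles over the 4 libraries were also compared among members, by the distance between log2 CPM profiles centred on their means. Bak1 and Bcl2l11 were nearest to each other, at a distance of 0.23. Mcl1 and Bcl2a1b were nearest to each other at 0.25, and Bcl2l1 was nearest to Bcl2a1b at 0.40. Bcl2 lay far from all, with Pmaip1 nearest at 1.11. Over all tested genes with names, Cdv3, S100a8 and Mfsd2b were nearest to Bcl2a1d, at 0.11, 0.12 and 0.13. These are distances over 4 libraries and carry no test.

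The rest of the family was read next. Of 16 further genes, 12 could be tested, 6 with a log2 fold change above 0 and 6 below, with a median of 0.00. edgeR called 0 of them, 1 at an unadjusted p under 0.05, which was Bcl2a1a, and DESeq2 called 0. Most abundant by FPKM were Bnip3 and Bnip3l, mitochondrial proteins that act in removal of mitochondria. Bnip3 stood at 205.3 and 121.9 CPM in the knockouts against control values of 233.0 and 83.1, lower in both libraries numbered 3. Bnip3l stood at 175.6 (control 1), 132.3 (control 3), 168.8 (knockout 1) and 140.1 CPM (knockout 3). Hrk and Bcl2l10 had a count of 0 in all 4 libraries.

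Downstream of the mitochondria lie the apoptosome and the caspases, with inhibitors such as the IAP proteins. Of these 16 genes, all tested, 10 had a log2 fold change above 0 and 6 below, and edgeR and DESeq2 each called 0. The median was 0.05. Casp9, the initiator caspase that the apoptosome activates, had the only unadjusted p under 0.05. It stood at 18.7 and 28.7 CPM in the controls, with 49.6 and 36.2 in the knockouts. The edgeR estimate in log2 was 0.86 ± 0.30 (SE, 2 libraries a genotype, edgeR adjusted p = 1.00), 1.41 within number 1 and 0.33 within number 3. The most abundant by FPKM were Birc3, an IAP protein, at 224.8 to 319.1 CPM, and Cycs, cytochrome c, at 52.0 to 79.1 CPM, both with overlapping genotypes.

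Death receptors feed into the same pathway through caspase 8. Of 14 genes, 13 were tested, 10 above 0 and 3 below, with a median of 0.13, and edgeR and DESeq2 each called 0. Of these, 2 had an unadjusted p under 0.05. Tnfsf10, which encodes the death ligand TRAIL and is induced by interferon, stood at 2.91 and 4.81 CPM in the knockouts against control values of 1.01 and 1.29 (edgeR unadjusted p = 0.0135, adjusted p = 1.00). Mlkl, the executor of necroptosis, stood at 32.3 (control 1), 28.8 (control 3), 42.0 (knockout 1) and 44.0 CPM (knockout 3) (edgeR unadjusted p = 0.0348, adjusted p = 1.00). The abundant tumour necrosis factor receptors overlapped between genotypes, Tnfrsf1b at 604.7 and 779.7 CPM in the controls, with 640.8 and 813.7 in the knockouts, and Tnfrsf1a at 204.6 to 224.3 CPM over the 4 libraries.

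The p53 targets and the regulators of MCL1 turnover and BH3-only genes gave little beyond a single gene. Of 20 p53 targets, 12 were above 0 and 8 below, with a median of 0.03. By edgeR 0 were called, with 1 at an unadjusted p under 0.05. That gene was Dram1, also the only listed gene called by DESeq2. Dram1, a regulator of autophagy, stood at 284.1 and 229.3 CPM in the knockouts against control values of 89.7 and 56.0 (DESeq2 adjusted p = 8.10e-05; edgeR adjusted p = 1.00). Sesn1, which restrains mTORC1, stood at 141.3 to 203.1 CPM with overlapping genotypes. Trp53 itself stood at 53.3 (control 1), 55.2 (control 3), 48.8 (knockout 1) and 42.7 CPM (knockout 3). It had the smallest unadjusted p of the 14 regulators (edgeR unadjusted p = 0.189, adjusted p = 1.00). Of these 14, 7 were above 0 and 7 below, the median was 0.00, and edgeR and DESeq2 each called 0 of them, with 0 at an unadjusted p under 0.05 by edgeR. The abundant Vdac1 and Vdac2, channels of the outer mitochondrial membrane, stood at 157.4 to 261.2 CPM and 135.5 to 157.0 CPM.

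**Figure D4:**
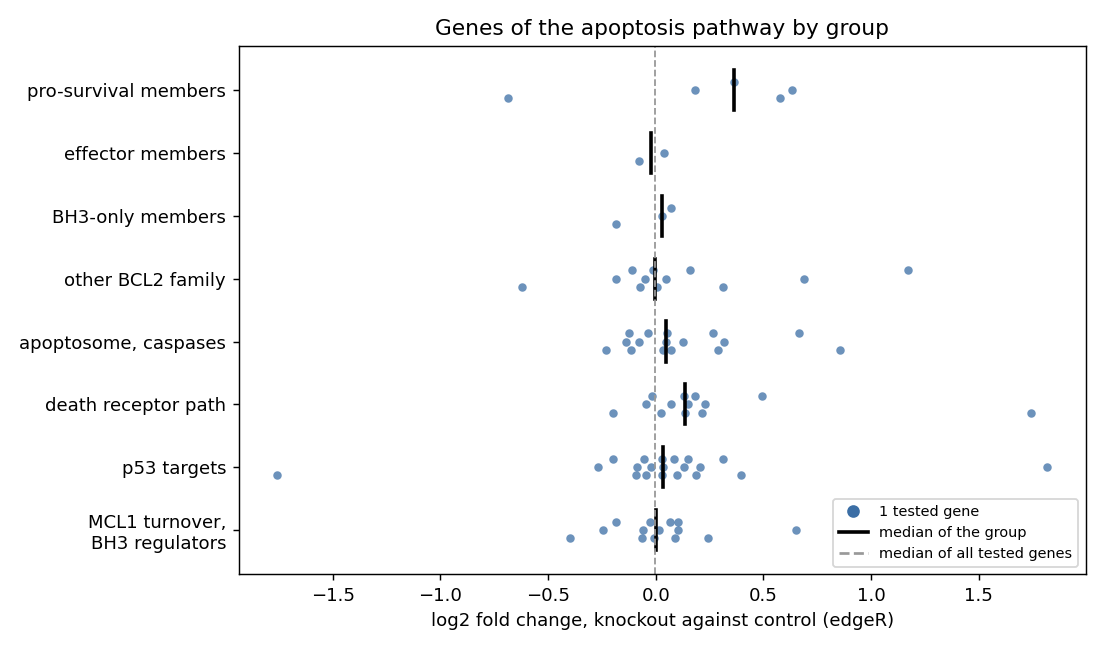
Log2 fold change (edgeR, knockout against control) of every tested gene in the roles of the BCL2 family and in 5 further groups of the apoptosis pathway; each point is a gene, the black bar the median of its group and the dashed line the median of all tested genes. Medians of the 5 further groups lie between 0.00 and 0.13, and that of the 5 pro-survival genes at 0.36.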

How the data were processed

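Poly(A) RNA of 4 libraries was sequenced as read pairs of 150 bases. The submitters' processing notes name cutadapt 1.9, HISAT2 2.0.4, StringTie 1.3.4d, edgeR and DESeq2. Build, strand setting and treatment of multiply matching reads are not given in the sources used here; all 10 members had the coordinates of GENCODE M21 (GRCm38). The authors deposited whole-number estimated counts, not normalized, and FPKM values, per the file headers, with 0 written as 0.0001; several counts may stand for 1 read pair. A further 4 columns, from 2 libraries that matched no sample, were not used.

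Counts of 17260 genes were tested with edgeR 4.0.16 (R 4.3.3; quasi-likelihood, TMM, filterByExpr, two-sided, Benjamini-Hochberg over all tested genes, threshold 0.05). CPM use TMM-scaled library sizes, and within-number differences are of log2 CPM with a prior count of 2. Alternatives were DESeq2 1.42.0, limma 3.58.1 on log2(FPKM + pseudocount), other scalings and filters, leaving out each library, and a replicate block. Tested on simulated data, edgeR recovered the direction and size of changes but without the replicate block called none of the changed genes, so a gene that was not called may still differ. Members and gene lists were chosen with earlier results of these data known. All 10 members are named, and from each further list the 2 with the highest mean FPKM and the gene with the smallest unadjusted p. Bcl2a1c, Gm29094, Gm50253, Zbtb9, Hrk, Bcl2l10, Mlkl, Bcl2l2, Bad, Bid and Bmf were named after their values were seen. So were the marker genes at 0 and the markers Cd3g, Cd3d, Trac, Cd4, Cd79b, Klrb1c, S100a8, Camp, Csf3r, Mmp8, Lyz2, Csf1r and Cd68.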

Additional observations from a re-analysis of the deposited data

Results flagged for a closer look

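In 5 members the difference between genotypes had opposite signs within the library numbers, which coincide with the sex of the cells. Log2 CPM, knockout minus control, differed by -0.1707 within number 1 and 0.5878 within number 3 for Mcl1, and by -0.3577 and 0.2270 for Bax. The same values were 0.1534 and -0.0854 for Bak1, 0.2911 and -0.3078 for Bbc3, and -0.3009 and 0.3575 for Pmaip1. Each value rests on 1 library per genotype, and the difference between the numbers was not tested. Opposite signs were seen in 47.0% of all tested genes.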

How the results depend on the processing

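Among the 14 alternatives to edgeR's comparison of genotypes, those that kept all 4 libraries called 0 members. Their smallest adjusted p for a member was 0.480, for Bcl2l1 by DESeq2 with the replicate block (added after the data were seen). Bcl2l1, Bcl2a1b, Bcl2a1d and Bcl2l11 kept their direction under every alternative run, and the other 6 members turned in at least 1. Over all genes, edgeR called 0 and DESeq2 74, or 175 with the replicate block. With the replicate block, edgeR called 0 genes and the log2 fold change of Bbc3 turned to -0.00838; it turned to -0.00654 by limma on log2(FPKM + 0.1) and to -0.0042 by DESeq2 with the block. With that block the unadjusted p by edgeR was 0.0184 for Bcl2a1d and 0.0322 for Bcl2l1 (adjusted p = 0.903 and 0.922). Equal library numbers are not said to mark a shared litter or day, and deviations from the group means correlated at 0.42 between same-numbered libraries, across genes.

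When each library was left out in turn, the lone library of a group was assumed to vary like the other group. Log2 fold changes then ranged from -1.19 to 0.13 for Bcl2, from -0.0795 to 0.513 for Mcl1, from -0.27 to 0.15 for Bax, from -0.0654 to 0.150 for Bak1, from -0.33 to 0.33 for Bbc3 and from -0.32 to 0.39 for Pmaip1. They ranged from 0.24 to 1.03 for Bcl2l1, from 0.19 to 0.57 for Bcl2a1b, from 0.45 to 0.81 for Bcl2a1d and from -0.30 to -0.07 for Bcl2l11. Between library numbers, edgeR called 122 genes, 0 without a filter, and DESeq2 1233; members called were 0 in each. Of 60 recomputed within-number differences 1 moved by more than the replicate spread, that of Bcl2 within number 3, from -1.04 to -0.36 on the log2(FPKM + 1) scale, which compresses low values. With 2 libraries per genotype, the 95% intervals were wide for some members. They reached from -0.97 to 1.03 for Bbc3, from -0.96 to 1.10 for Pmaip1 and from -2.11 to 0.74 for Bcl2. The data leave room for differences within them.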

Other observations

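A gene that overlaps Bak1 on the opposite strand differed far more between genotypes than Bak1 did. Gm50253 (ENSMUSG00000117819, chromosome 17, 26973217 to 27036378, plus strand), chosen after its values were seen, had 8.87 CPM in control 1 against 0.272 in knockout 1, and 7.17 in control 3 against 0.341 in knockout 3. The edgeR estimate in log2 was -4.70 ± 0.39 (SE, 2 libraries a genotype, edgeR unadjusted p = 1.25e-04, adjusted p = 1.00; DESeq2 adjusted p = 2.00e-19). Its start lies 50 bases from that of Zbtb9, a zinc finger gene on the same strand. Zbtb9 stood at 7.33 and 10.5 CPM in the controls, with 19.3 and 22.1 in the knockouts, the opposite direction. Summed, Gm50253 and Zbtb9 stood at 19.5 and 22.5 CPM in the knockouts against control values of 16.2 and 17.7. How the authors' counting divides reads between genes that share a start was not tested.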
